A study of Mus musculus with 2 samples.

Results

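The Ly49 receptors, encoded by the *Klra* genes, were described in the single-cell RNA libraries of NOD/ShiLtJ and CD1 mouse salivary glands. The members are *Klra1*, *Klra3*, *Klra4*, *Klra5*, *Klra7*, *Klra8*, *Klra9* and *Klra13-ps*, which are 8 of the 14 rows whose symbol begins with *Klra* and 8 of the 50768 gene rows of each library. They were read in barcodes with at least 500 unique molecular identifiers (UMIs) and at least 300 genes that carried at least 2 UMIs of *Ncr1* and *Klrd1* together, genes that mark the natural killer (NK) lineage. These *Ncr1*/*Klrd1* barcodes numbered 1100 of 6500 kept barcodes in NOD and 475 of 7014 in CD1, and no *Klra* gene was used to choose them.

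Both libraries came from untreated female mice of 20 weeks, NOD/ShiLtJ (spelled NOD/ShiltJ in the sample labels) or CD1, taken from the submandibular gland (SMG) with the sublingual gland beside it. NOD/ShiLtJ is an inbred strain used as a genetic model of Sjögren's disease, and CD1 is an outbred control stock. Epithelial cells (EpCAM) and red blood cells (Ter119) were depleted with magnetic beads and dead cells were removed, so both libraries are enriched for stromal and immune cells. Mice were pooled within a strain, 4 per strain in the paper and 3 in the sample labels. Each strain is 1 library, so strain and library cannot be told apart. With no replicate, the differences between NOD and CD1 carry no test, and every interval given here covers counting error only. NOD held 52790319 UMIs and CD1 56483149, with medians of 5719.5 and 6495 UMIs per kept barcode, and 18 barcode names were kept in both libraries.

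Ly49 receptors are C-type lectin-like proteins on the surface of mouse NK cells that bind major histocompatibility complex (MHC) class I molecules on other cells. Inhibitory members carry a tyrosine in a short cytoplasmic motif near their start, which recruits phosphatases when the receptor is bound. Activating members lack that tyrosine and pair with the adaptor DAP12, encoded by *Tyrobp*. Each NK cell switches on a few members of the cluster, in varied combinations. The cluster differs in gene content and sequence between inbred strains, and the reference used for read assignment derives from C57BL/6, neither of the strains measured here. For every difference between NOD and CD1 below, a difference in transcript level and a difference in how well each strain's reads were assigned to these rows cannot be told apart.

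The start of the coding sequence shows the split between the kinds of member. The first 45 bases are given below from the transcripts of GENCODE M21 (GRCm38, sense strand), with codon 8 in capitals, the codon at the place of the inhibitory tyrosine. For the pseudogene *Klra13-ps* the run starts at the first ATG of its transcript.
Klra1: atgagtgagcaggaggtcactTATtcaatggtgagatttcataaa
Klra3: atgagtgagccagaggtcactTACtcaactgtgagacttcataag
Klra7: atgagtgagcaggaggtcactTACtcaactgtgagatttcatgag
Klra9: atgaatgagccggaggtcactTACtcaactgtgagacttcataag
Klra5: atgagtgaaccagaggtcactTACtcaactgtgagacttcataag
Klra4: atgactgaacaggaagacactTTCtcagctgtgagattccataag
Klra8: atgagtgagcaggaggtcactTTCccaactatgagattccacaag
Klra13-ps: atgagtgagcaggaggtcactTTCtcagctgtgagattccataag

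Codon 8 was TAT or TAC, which encode tyrosine, in *Klra1* (Ly49A), *Klra3* (Ly49C), *Klra7* (Ly49G), *Klra9* (Ly49I) and *Klra5* (Ly49E). It was TTC, which encodes phenylalanine, in *Klra4* (Ly49D), *Klra8* (Ly49H) and *Klra13-ps* (Ly49M), of which *Klra4* and *Klra8* are known activating receptors. These kinds are those of the C57BL/6-derived transcripts. Codon 8 of the NOD and CD1 genes whose reads fell on these rows was not known, here and below. The members are close relatives. Pairwise identity of their transcripts ran from 75.5% for *Klra3* and *Klra4* to 96.2% for *Klra3* and *Klra9*. The share of 50-base windows of a transcript that also occurred in another *Klra* transcript was 33.1% for *Klra8*, 32.4% for *Klra9*, 21.5% for *Klra3*, 14.7% for *Klra7* and 13.1% for *Klra13-ps*, so counts of these rows are uncertain where reads could be split between them. Over the last 400 windows the order was another, with *Klra9* at 50.5%, *Klra3* at 35.5%, *Klra7* at 31.0%, *Klra13-ps* at 24.75% and *Klra8* at 13.75%. Over the whole transcript it was 4.35% for *Klra4*, 3.15% for *Klra1* and 0.732% for *Klra5*, and 0 in the last 400 windows of each, the lowest shares among the members. All lie on chromosome 6, in the order *Klra5*, *Klra4*, *Klra8*, *Klra9*, *Klra7*, *Klra13-ps*, *Klra3* and *Klra1* with other *Klra* genes between them.

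The first question was whether the members marked the NK-lineage barcodes among the lymphocytes of the gland. In NOD the 8 members together held 38177 UMIs in the *Ncr1*/*Klrd1* barcodes, or 3277 UMIs per 1000000 UMIs of the class (CPM, 95% Poisson interval 3244 to 3310). T barcodes, gated on *Cd3d*, *Cd3e* and *Cd3g*, held 34.7 CPM over 1869 barcodes, and B barcodes, gated on *Cd79a*, *Cd79b* and *Ms4a1*, held 16.9 CPM over 797. Against T and B barcodes together the level was 110.4-fold higher (log2 6.79, 6.66 to 6.91). All 8 members were at least 2-fold higher there, where 7.21% of 15704 genes were, and none was lower, where 10.3% of genes were. The median log2 ratio of the members was 7.46 against 0.00 for all genes. In CD1 the members held 6310 UMIs in the *Ncr1*/*Klrd1* barcodes, 1042 CPM (1016 to 1068), and 0 UMIs in 102 T and 26 B barcodes. Set against a floor of 3 UMIs over the T and B barcodes, the CD1 level was at least 395-fold higher. All 8 members passed 2-fold on that bound, and none was lower. Over all 12215 genes no floor was used, so every gene at 0 UMIs in T and B barcodes counted as higher. In that count 8.27% of genes were at least 2-fold higher and 8.22% lower, which is no matched background for the bound. The members entered the filter of 20 UMIs through the *Ncr1*/*Klrd1* barcodes alone. In these summed levels, fewer cells with a receptor and less receptor RNA per cell cannot be told apart. These barcodes held 95.6% of all member UMIs of the kept barcodes in NOD and 98.9% in CD1. Just inside the threshold, barcodes with 2 UMIs of *Ncr1* and *Klrd1* held the members at 561 CPM in NOD and 186 CPM in CD1, and just outside, barcodes with 1 UMI held 222 and 9.49 CPM.

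**Figure D1:**
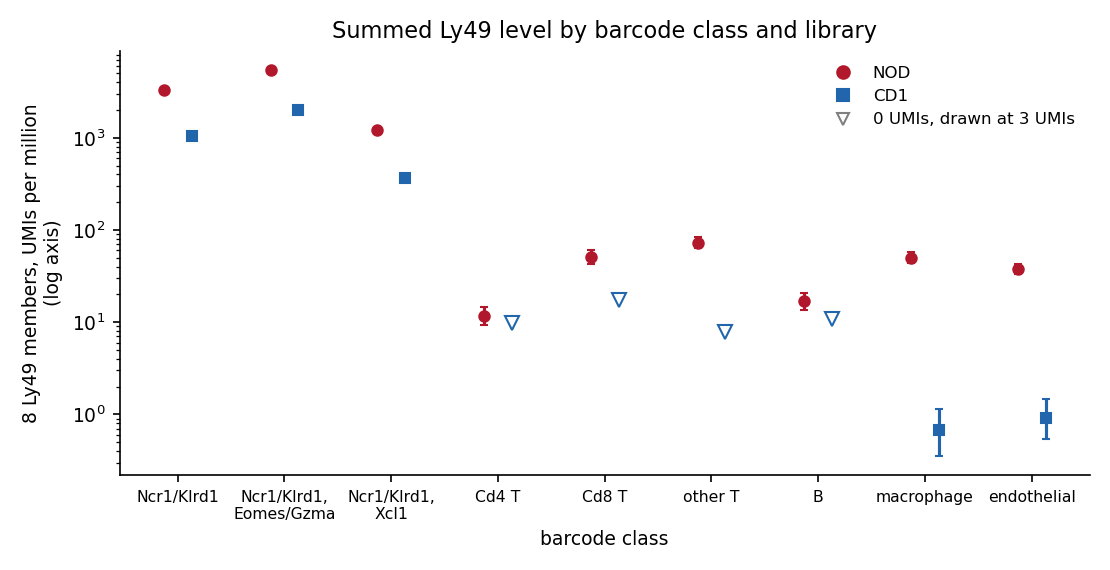
Summed level of the 8 Ly49 members in CPM (log axis) by barcode class, for NOD (circles) and CD1 (squares), with 95% Poisson intervals that are often smaller than the symbols. Open triangles mark classes with 0 UMIs, drawn at the level of 3 UMIs. The *Ncr1*/*Klrd1* barcodes reach 3277 in NOD and 1042 in CD1, the *Eomes*/*Gzma* and *Xcl1* classes are parts of those barcodes with at least 2 UMIs of these genes, and the NOD classes outside them lie between 11.7 and 72.9.

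Outside these barcodes, member UMIs in NOD were about as frequent in T and B barcodes as in endothelial barcodes, which should lack these receptors. A member UMI was seen in 10.8% of NOD T barcodes (median 6280 UMIs) and 8.41% of B barcodes (6013 UMIs), beside 9.39% of endothelial barcodes (5129 UMIs). With each barcode thinned to 500 UMIs these shares were 2.09% (1.49 to 2.84) in T, 1.38% (0.691 to 2.46) in B and 1.27% (0.679 to 2.17) in endothelial barcodes, against 50.4% in the *Ncr1*/*Klrd1* barcodes. Macrophage barcodes of NOD (2914 UMIs) held a member UMI in 17.1%, and in 2.46% after thinning, with another make-up. *Klra8* led there with 63 of 193 member UMIs, up to 9 in 1 barcode, followed by *Klra9* with 35, while *Klra1* had 19. In droplets of 10 to 100 UMIs, taken as empty, *Klra1* led, with 1531 UMIs against 318 of *Klra8*, so the macrophage barcodes are not used here as a background without receptors. These droplets held all members together at 895 CPM in NOD and 112 CPM in CD1. Of the 201 NOD T barcodes with a member UMI, 159 held a single one, and 7 barcodes with 10 or more held 183 of the 451 UMIs. Those 7 included 6 of the 559 T barcodes not placed by *Cd4* or *Cd8* UMIs, a set in which the members stood at 72.9 CPM. In *Cd4* T barcodes the level was 11.7 CPM. CD1 macrophage and endothelial barcodes held 0.670 and 0.924 CPM, with no barcode above 1 UMI.

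Within the *Ncr1*/*Klrd1* barcodes, the rows of the members were higher in NOD than in CD1 as a group, but unequally so. The summed level of 3277 CPM in NOD was 3.15-fold that of 1042 CPM in CD1 (log2 1.65, counting interval 1.61 to 1.69). A member UMI was found in 836 of 1100 NOD barcodes, 76.0% (Clopper-Pearson 73.4 to 78.5), and in 267 of 475 CD1 barcodes, 56.2% (51.6 to 60.7). The CD1 barcodes were deeper, with a median of 10432 UMIs against 8603, and at 500 UMIs each the shares were 50.4% and 27.2%. Of the members, 5 of 8 were at least 2-fold higher in NOD, where 7.1% of 14210 genes were, and 0 of 8 were at least 2-fold higher in CD1, where 7.25% were. The median log2 ratio was 1.34 over the members and 0.04 over all genes.

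Among the members with the tyrosine codon, *Klra1* had the widest gap. *Klra1*, an inhibitory receptor for H-2D molecules, stood at 800.2 CPM in NOD and 115 CPM in CD1 (log2 2.80, 2.69 to 2.91). *Klra5*, known as the Ly49 receptor of fetal NK cells, followed at 287 and 78.3 CPM (log2 1.88, 1.74 to 2.02). *Klra9*, an inhibitory receptor, had 132 and 53.2 CPM (log2 1.31, 1.13 to 1.49). *Klra3*, its nearest relative among the members, was the lowest of them in both libraries, at 36.0 and 22.5 CPM (log2 0.68, 0.40 to 0.97). *Klra7*, an inhibitory receptor, was nearly level at 253 CPM in NOD and 236 CPM in CD1, and its log2 ratio of 0.10 (0.01 to 0.20) lay close to that of all genes.

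The phenylalanine members spanned a wider range. *Klra13-ps* held 8696 UMIs in NOD and 164 in CD1, or 746 and 27.1 CPM (log2 4.78, 4.56 to 5.02), which placed it at rank 82 of 14210 genes by its ratio. *Klra4*, the activating receptor Ly49D, held 765 CPM in NOD and 412 CPM in CD1 (log2 0.89, 0.83 to 0.96), so it was the highest member in CD1 and the next after *Klra1* in NOD. *Klra8*, the activating receptor Ly49H known for recognising a cytomegalovirus protein, held 257 and 98.7 CPM (log2 1.38, 1.25 to 1.51).

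**Figure D2:**
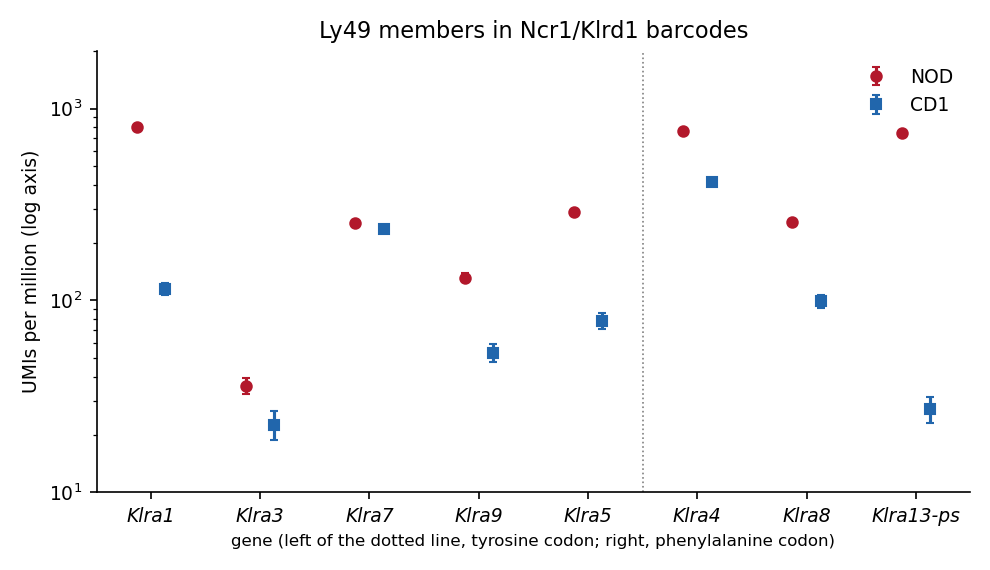
Level of each Ly49 member in the *Ncr1*/*Klrd1* barcodes of NOD (circles, 1100 barcodes) and CD1 (squares, 475 barcodes), in CPM on a log axis with 95% Poisson intervals. *Klra13-ps* is farthest apart, at 746 and 27.1, and *Klra7* is nearly level, at 253 and 236.

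The make-up of the family differed between the libraries more than the balance of its kinds. Shares of member UMIs are given without length correction, since the end of the transcript that was read is not stated in these sources. In NOD, *Klra1* (24.4%), *Klra4* (23.3%) and *Klra13-ps* (22.8%) took most of the UMIs. In CD1, *Klra4* (39.5%) and *Klra7* (22.6%) led, with *Klra1* at 11.03% and *Klra13-ps* at 2.60%. The phenylalanine members together took 54.0% (53.5 to 54.5) in NOD and 51.6% (50.3 to 52.8) in CD1.

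Per barcode, the gap took different forms. *Klra13-ps* reached 10 or more UMIs in 248 NOD barcodes, 22.5% (20.1 to 25.1), and in 0 of 475 CD1 barcodes, which allows a share of up to 0.632% by the limit of 3 counts (Clopper-Pearson up to 0.774%). Its highest count was 96 in NOD and 6 in CD1, and barcodes with a UMI held a median of 10 against 1. *Klra1* reached 10 UMIs in 30.8% of NOD and 3.37% of CD1 barcodes, with a median of 8 against 2 where it was seen. *Klra4* was similar in kind in both libraries, with 10 or more UMIs in 25.5% and 20.2% of barcodes and medians of 7 and 8 where it was seen. *Klra7* had 10 or more UMIs in 9.45% of NOD and 11.6% of CD1 barcodes, and its median where seen was 5 in NOD and 8 in CD1. *Klra7* was thus seen at 1 UMI or more in more NOD barcodes (41.6% against 31.4%) but at lower counts. At 3 UMIs or more the shares were 28.3% (25.6 to 31.0) and 25.5% (21.6 to 29.6). Droplets taken as empty held *Klra7* at 98.8 CPM in NOD and 23.7 CPM in CD1, and the part of free RNA was not tested.

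**Figure D3:**
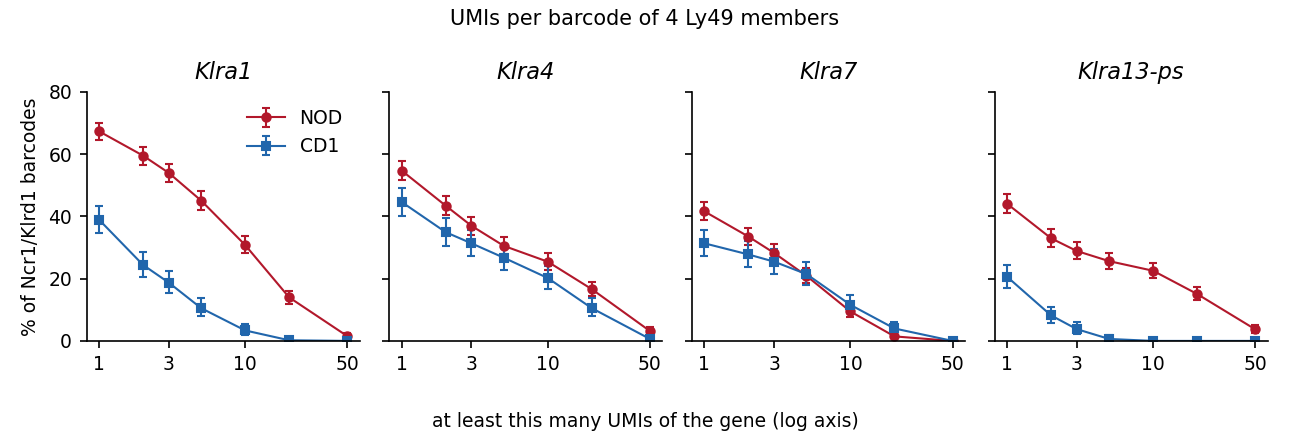
Percent of *Ncr1*/*Klrd1* barcodes (vertical axis) with at least the number of UMIs on the horizontal log axis, for 4 members in NOD (circles) and CD1 (squares), with Clopper-Pearson intervals. The *Klra13-ps* curve of CD1 is at 0 from 10 UMIs, where NOD is at 22.5%, whereas the *Klra7* curves cross.

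NK-lineage cells include conventional NK cells, often marked by *Eomes* and granzyme A (*Gzma*). They also include tissue-resident cells of the type 1 innate lymphoid (ILC1) kind, often marked by *Itga1* and *Cxcr6*. The *Ncr1*/*Klrd1* barcodes were divided by transcripts, which need not divide them by cell type. *Eomes*/*Gzma* barcodes had at least 2 UMIs of these genes (444 in NOD, 157 in CD1). *Xcl1* barcodes had at least 2 *Xcl1* UMIs and no *Eomes* or *Gzma* UMI (368 and 219). Whether resident cells of this gland carry *Eomes* was not tested. The *Xcl1* barcodes are not a pure ILC1 class. *Cd3e* was higher in them, with log2 ratios for *Eomes*/*Gzma* over *Xcl1* barcodes of -1.09 in NOD and -0.73 in CD1. *Xcl1* itself differed less, at -0.51 and -0.06. *Itga1* was at -0.77 and -0.52 and *Cxcr6* at -1.35 and -1.41, so *Eomes*/*Gzma* barcodes also held UMIs of these ILC1 genes. Summed members stood at 5370 CPM in *Eomes*/*Gzma* and 1199.7 CPM in *Xcl1* barcodes of NOD (log2 2.16, 2.12 to 2.21). In CD1 they stood at 2020.5 and 367 CPM (log2 2.46, 2.36 to 2.56). Of the members, 7 of 8 were at least 2-fold higher in *Eomes*/*Gzma* barcodes, where 4.1% of genes were in NOD, and the same 7 were so in CD1, where 2.88% of genes were. The exception in both was *Klra5*, which was at least 2-fold higher in *Xcl1* barcodes, as were 4.77% of genes in NOD and 3.57% in CD1.

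*Klra5* held 195 CPM in *Eomes*/*Gzma* and 438 CPM in *Xcl1* barcodes of NOD (log2 -1.17, -1.28 to -1.06). In CD1 it held 28.6 and 124 CPM (log2 -2.11, -2.52 to -1.73). It took 36.5% of member UMIs in the *Xcl1* barcodes of NOD and 33.6% in those of CD1, but 3.63% and 1.41% in the *Eomes*/*Gzma* barcodes. The phenylalanine members moved the other way as a group. Their share of member UMIs was 60.3% in *Eomes*/*Gzma* and 17.6% in *Xcl1* barcodes of NOD, and 57.1% and 26.2% in CD1. Their log2 ratios between the sub-classes were 3.49 for *Klra4*, 3.97 for *Klra8* and 4.59 for *Klra13-ps* in NOD, and 3.66, 3.85 and 2.12 in CD1. *Klra1* had the lowest of the positive ratios in CD1 (1.81), and *Klra7* in NOD (1.55). *Klra5* was also higher in *Ncr1*/*Klrd1* barcodes with at least 2 *Cd3* UMIs than in those with none. It held 324 against 144 CPM in NOD and 138 against 50.2 CPM in CD1. The part of T cells in the *Klra5* difference between the sub-classes was not tested.

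**Figure D4:**
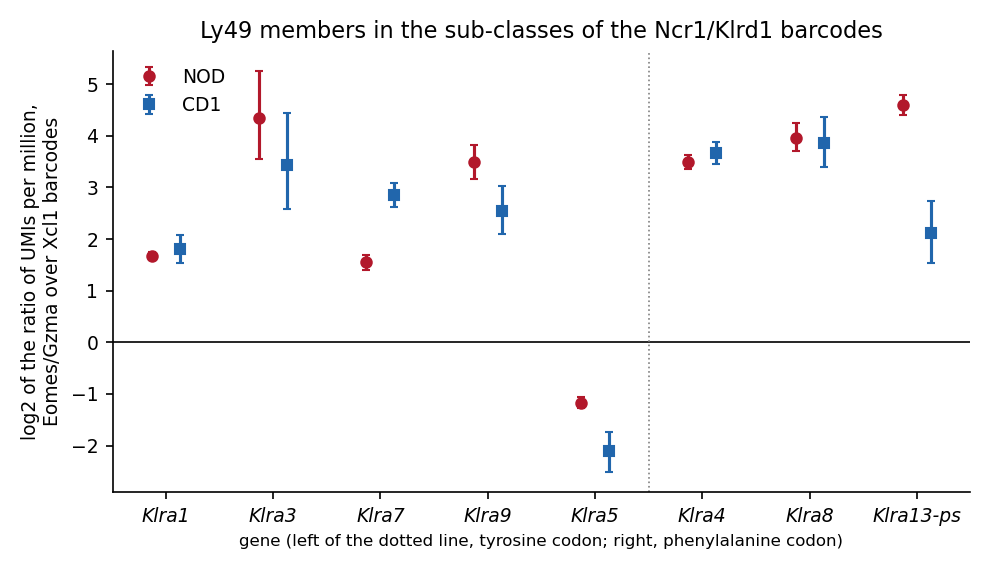
Log2 ratio of CPM in *Eomes*/*Gzma* over *Xcl1* barcodes for each member in NOD (circles) and CD1 (squares), with 95% counting intervals and a line at 0 for equal levels. *Klra5* alone lies below 0, at -1.17 in NOD and -2.11 in CD1.

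The gap between the libraries in the summed level was present inside both sub-classes and in the barcodes of neither. In those of neither (288 in NOD) the summed level was 1478 CPM in NOD and 629 CPM in CD1 (log2 1.23, 1.11 to 1.36). *Klra3* (log2 -0.34) and *Klra7* (-0.18) were lower in NOD there, both with intervals that include equal levels. In *Eomes*/*Gzma* barcodes the summed level was 5370 CPM in NOD and 2020.5 CPM in CD1 (log2 1.41, 1.37 to 1.45), and 5 of 8 members were at least 2-fold higher in NOD, where 6.41% of genes were, and none was so in CD1, where 5.08% were. *Klra13-ps* was at 1375 and 49.3 CPM there (log2 4.80). *Klra7* went the other way, with 388 CPM in NOD and 483 CPM in CD1 (log2 -0.31, -0.42 to -0.21). In *Xcl1* barcodes the summed level was 1199.7 and 367 CPM (log2 1.71, 1.61 to 1.81), and 4 of 8 members were at least 2-fold higher in NOD, where 6.52% of genes were, and none was so in CD1, where 5.95% were. *Klra5* was at 438 and 124 CPM there and *Klra7* at 133 and 67.1 CPM. *Klra13-ps* was at 57.3 and 11.4 CPM (log2 2.33, 1.79 to 2.93), a narrower gap than in *Eomes*/*Gzma* barcodes. *Klra9* was at 21.2 and 18.0 CPM, with an interval that includes equal levels (log2 0.24, -0.29 to 0.78). A member UMI was found in 89.6% of NOD and 89.2% of CD1 *Eomes*/*Gzma* barcodes, but in 75.0% and 38.8% of *Xcl1* barcodes. At 500 UMIs per barcode these shares were 71.4% and 54.8% in *Eomes*/*Gzma* and 39.7% and 11.4% in *Xcl1* barcodes.

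Members were seen together in 1 barcode more often in *Eomes*/*Gzma* barcodes than in *Xcl1* barcodes. Counting a member from 3 UMIs, *Eomes*/*Gzma* barcodes held a median of 4 members in NOD and 2 in CD1, and *Xcl1* barcodes a median of 1 and 0. At least 3 members were found in 66.4% of NOD and 49.0% of CD1 *Eomes*/*Gzma* barcodes, and in 15.2% and 6.85% of *Xcl1* barcodes. These numbers depend on UMIs per barcode and were not thinned. Barcodes with both a tyrosine and a phenylalanine member made up 70.9% of *Eomes*/*Gzma* barcodes in NOD and 65.6% in CD1. Phenylalanine members without any tyrosine member were rare there, at 4 of 444 and 9 of 157 barcodes. In *Xcl1* barcodes of NOD, tyrosine members without a phenylalanine member were the commonest state, in 44.3% of barcodes, and 37.0% held no member. In *Xcl1* barcodes of CD1, 76.7% held no member at this count.

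Across the *Ncr1*/*Klrd1* barcodes, the counts of the members other than *Klra5* ran together. Spearman's rho between their UMIs per barcode, over 21 pairs, ranged from 0.55 to 0.85 in NOD (1100 barcodes) and from 0.34 to 0.75 in CD1 (475 barcodes). For the 7 pairs with *Klra5* it ranged from -0.04 to 0.13 in NOD and from 0.01 to 0.06 in CD1. These are descriptions over barcodes of 1 library that share its depth and its free RNA, and rows that share sequence can take each other's reads. Of the 318 NOD barcodes with at least 3 *Klra13-ps* UMIs, 297 had at least 3 of *Klra4* and 309 of *Klra1*, beside 37.0% and 54.0% of all 1100. Of the 149 CD1 barcodes with at least 3 *Klra4* UMIs, 106 had at least 3 of *Klra7*, 67 of *Klra1* and 17 of *Klra13-ps*. The shares of all 475 were 25.5%, 18.7% and 3.79%. Only 18 CD1 barcodes had at least 3 *Klra13-ps* UMIs, and those 17 were among them.

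The barcodes that carried *Klra5* and those that carried *Klra4* were set side by side, each with at least 3 UMIs of the one and under 3 of the other. There were 167 *Klra5* and 351 *Klra4* barcodes in NOD, and 28 and 140 in CD1. *Ncr1*, which helped to choose all of these barcodes, was at 901 and 949 CPM in NOD and 1190 and 1099 CPM in CD1, so it is no independent measure here. *Itga2*, an integrin listed here as a conventional NK marker, was at 16.8 CPM in *Klra5* and 375 CPM in *Klra4* barcodes of NOD. In CD1 it was at 31.5 and 186 CPM. *Eomes*, a transcription factor of the NK lineage, was at 32.0 and 339 CPM in NOD and 24.8 and 219 CPM in CD1. The other way, *Cxcr6*, a chemokine receptor of resident lymphocytes, was at 720.3 and 162 CPM in NOD (log2 2.15) and 484 and 156 CPM in CD1 (log2 1.63). *Itga1*, the CD49a integrin of ILC1, was at 772 and 377 CPM in NOD and 572 and 343 CPM in CD1, and *Cd200r1* was at 228 and 49.3 CPM in NOD and 189 and 71.2 CPM in CD1. *Cd3e* was also higher in the *Klra5* barcodes, at 397 and 119 CPM in NOD and 87.8 and 22.4 CPM in CD1, and the part of T cells in these sets was not tested. *Tyrobp* was lower in the *Klra5* barcodes, at 251 and 788 CPM in NOD and 853 and 1236 CPM in CD1. Not every marker split the sets. *Xcl1* had log2 ratios of 0.42 in NOD and -0.10 in CD1, and *Gpr183* -0.22 and 0.38. *Il7r* and *Tnfsf10* were higher in the *Klra5* barcodes of NOD (1.32 and 1.15), but their CD1 intervals included equal levels. *Itgam* was lower there in NOD (-3.96) and level in CD1 (-0.01). *Gzma*, *Prf1* and *Zeb2* were lower and *Inpp4b* higher there in both.

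**Figure D5:**
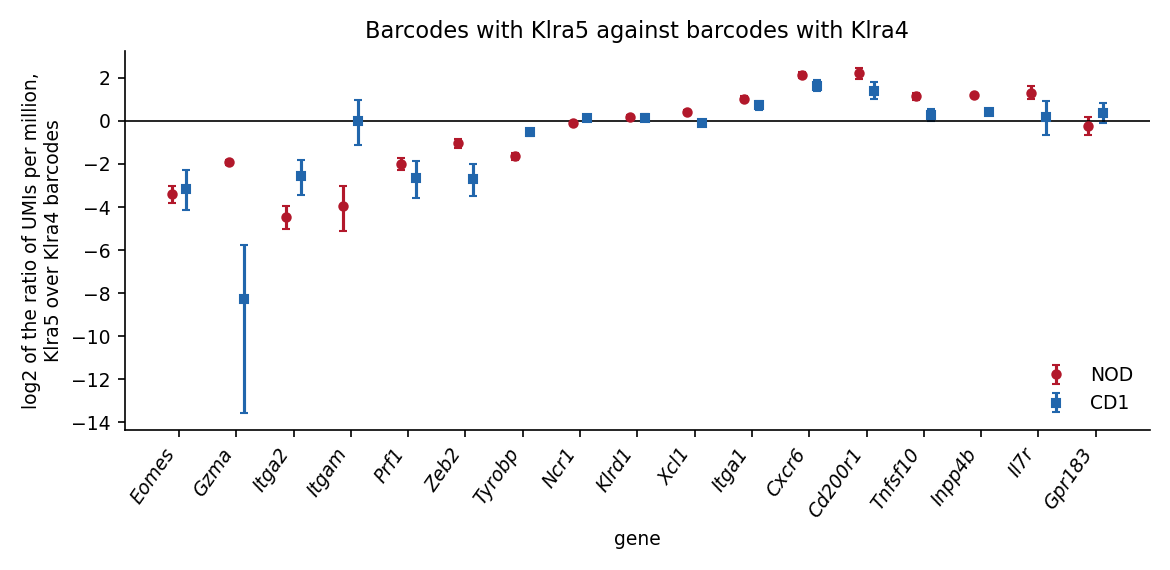
Log2 ratio of CPM in *Klra5* barcodes (at least 3 *Klra5* and under 3 *Klra4* UMIs) over *Klra4* barcodes (the reverse) for 17 NK-lineage genes, in NOD (circles) and CD1 (squares), with 95% counting intervals. *Eomes* and *Itga2* lie below 0 and *Itga1*, *Cxcr6* and *Cd200r1* above 0 in both libraries, and the wide CD1 interval of *Gzma* rests on 1 UMI in the *Klra5* barcodes.

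The *Ncr1*/*Klrd1* barcodes were not a pure NK class, and their make-up moved with the strain. At least 2 *Cd3* UMIs were found in 70.7% of them in NOD and 28.2% in CD1, a *Trac* UMI in 35.5% and 9.89%, and an *Ncr1* UMI in 77.9% and 92.2%. Of the 9 T markers, 7 were at least 2-fold higher in NOD in this class and 0 in CD1, beside 7.1% and 7.25% of all genes. Of the 9 conventional NK markers 3 were so in NOD, of the 8 ILC1 markers 1 was so in each library, which is near the share of all genes, and of the 5 macrophage markers all 5 were so in CD1, as were 3 of 4 endothelial, 1 of 2 plasma cell and 2 of 3 epithelial markers. Of the 4 B markers 2 were so in NOD. At least 2 UMIs of a B, macrophage or endothelial gate were found in 19.7% for NOD and 39.4% for CD1. NK-lineage genes that did not choose the class were present in both, with *Nkg7* at 953 and 807 CPM, *Il2rb* at 622 and 550.3 CPM and *Klrk1* at 615 and 645 CPM. The others on that list were lower in NOD, *Tyrobp* at 474 and 872 CPM and *Klrb1c* at 83.7 and 432 CPM. The summed member level was 4174 CPM in NOD and 1074 CPM in CD1 among barcodes without a *Cd3* UMI, and 4518 and 1084 CPM among those without a *Trac* UMI, which are log2 ratios of 1.96 and 2.06 beside 1.65 in the whole class. Without the barcodes that carried B, macrophage, endothelial or plasma cell genes the log2 ratio was 1.49. In *Ncr1*/*Klrd1* barcodes with no *Ncr1* UMI the members stood at 460 CPM in NOD and 90.1 CPM in CD1.

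The other *Klra* rows behaved like the members in part. *Klra14-ps*, a pseudogene beside *Klra8* with a TTC codon at the same place, held 734 UMIs in NOD and 14 in CD1 (63.0 and 2.31 CPM, log2 4.77). *Klra6*, encoding Ly49F, held 63.3 and 7.60 CPM (log2 3.06) and, like *Klra5*, was higher in *Xcl1* than in *Eomes*/*Gzma* barcodes, with log2 ratios of -0.71 in NOD and -1.34 in CD1 for the latter over the former. *Klra10* held 28.8 and 20.0 CPM, *Klra17* held 34.2 and 14.9 CPM, and *Klra11-ps* had no UMI in these barcodes. *Klra2*, encoding Ly49B and known from myeloid cells, was the only *Klra* row at a higher level in CD1, at 2.92 CPM in NOD and 20.6 CPM in CD1 (log2 -2.82). In macrophage barcodes *Klra2* stood at 225 CPM (211 to 241) in NOD and 234 CPM (228 to 241) in CD1, with a UMI in 44.7% and 54.8% of barcodes. Macrophage genes were found in 3.27% of NOD and 15.2% of CD1 *Ncr1*/*Klrd1* barcodes, and their part in the *Klra2* difference was not tested.

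Genes that work with or lie beside the Ly49 receptors were counted in the same way, to be read against the 7.1% of all genes that were at least 2-fold higher in NOD and the 7.25% that were so in CD1. Of 19 other receptors of the NK gene complex, 1 was at least 2-fold higher in NOD, *Klrg1*, at 28.8 and 5.94 CPM, and 4 were at least 2-fold higher in CD1, *Klrb1*, *Klrb1b*, *Klrb1c* and *Klrc1*. *Klrb1c*, which encodes the NK1.1 antigen, was at 83.7 CPM in NOD and 432 CPM in CD1 (log2 -2.37). Without *Klrd1*, which chose the barcodes, the median log2 ratio of the other 18 was -0.43, against 0.04 for all genes. Of 10 signalling partners, *Lat*, an adaptor of T cells, was at least 2-fold higher in NOD (log2 1.17) and none was so in CD1, and the list's median was 0.14. *Tyrobp*, the adaptor of the activating members, was at 474 CPM in NOD and 872 CPM in CD1 (log2 -0.88), and *Ptpn6*, the phosphatase SHP-1 recruited by the inhibitory members, was at 175 and 217 CPM (log2 -0.31). Like every member but *Klra5*, of both kinds, *Tyrobp* was at least 2-fold higher in *Eomes*/*Gzma* than in *Xcl1* barcodes, with log2 ratios of 1.38 in NOD and 1.04 in CD1.

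Class I molecules, the ligands of most members, are carried by the same cells. Of 10 genes on this list 9 were in the files, and 1 of them was at least 2-fold higher in NOD (*H2-Q6*, with 24 and 6 UMIs) and 1 in CD1 (*H2-T23*, at 42.0 and 84.5 CPM). *H2-K1* stood at 1553 and 1378 CPM, *H2-D1* at 1835 and 2146 CPM and *B2m* at 2508 and 2108 CPM. Class I alleles also differ between strains, so the limit on read assignment holds for them too. Of 9 NK-lineage transcription factors with enough UMIs, none differed by 2-fold, with *Eomes* at 148 and 109 CPM and *Tbx21* at 250.3 and 223 CPM. Of 13 other NK receptors measured, *Ncr1* left out since it chose the barcodes, 4 were at least 2-fold higher in NOD (*Tigit*, *Slamf6*, *Lag3* and *Pdcd1*) and 2 in CD1 (*Pilra* and *Fcgr3*), and the median was -0.11.

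The genes whose level was most like that of the summed members were sought over 15 barcode classes of both libraries, by Pearson's r of log2(CPM + 10) over 16730 genes other than *Klra*. *Klre1* (r = 0.97) and *Klri2* (r = 0.96) came first. Both encode lectin-like receptors of the same gene complex and form dimers with each other, and *Klrb1a* and *Klrc3* of that complex were also among the first 10, at r = 0.95 each. *9130019P16Rik*, *4931431B13Rik*, *Fcrl6*, *Prss2*, *Gm12596* and *Dscam* made up the rest of the first 10. The classes share libraries and free RNA, so these values describe likeness only.

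Within the *Ncr1*/*Klrd1* barcodes, those with at least 2 member UMIs (785 in NOD, 243 in CD1) were set against those with 0 (264 and 208). The 10 genes ranked highest with the members in both libraries were led by *Itga2*, at log2 3.30 in NOD and 3.48 in CD1, and included *Gzma* (2.13 and 4.67), *Eomes* (1.62 and 2.86), *S1pr5*, *Gzmc*, *Chl1*, *Osbpl1a* and *Gm36803*. *Phactr3* had 92 and 36 UMIs in the barcodes with members and 0 in those without, and *Ighv2-2* had 39 and 47 against 0. On the lower side stood *Cd8b1* (-3.10 and -3.82) and *Cd8a* (-2.94 and -2.61), the chains of CD8. *Il7r*, the interleukin 7 receptor chain, was also lower, at log2 -2.03 and -1.13. The barcodes with members were deeper, with medians of 9256 against 7387 UMIs in NOD and 11032 against 10063 in CD1.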

How the data were processed

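The authors deposited UMI counts per gene and barcode for 1 library per strain. The file headers name Cell Ranger 8.0.0, and the submitters' processing notes name GRCm39, Seurat 5.0.1 and R 4.3.1. No cell filter had been applied. A count that rests on reads assigned to C57BL/6-derived gene models can be low where a strain's sequence differs, which bears on every row here.

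The members and all lists were chosen with earlier results of these data known. Barcodes with at least 500 UMIs and 300 genes were kept and no doublets were removed. *Ncr1*/*Klrd1* barcodes needed 2 UMIs of these genes. T barcodes needed 2 *Cd3* UMIs, B barcodes 2 of *Cd79a*, *Cd79b* and *Ms4a1*, and macrophage (*Csf1r*, *C1qa*, *C1qb*) and endothelial (*Pecam1*, *Cdh5*) barcodes 2 of theirs, each with at most 1 UMI of the other lymphocyte gates. Summed UMIs per class were scaled to CPM, with an exact Poisson interval, shares carry Clopper-Pearson intervals and log2 ratios conditional binomial ones (95%, SciPy 1.17.1). The log2 intervals were tried on simulated Poisson counts, the model they assume, so that trial says nothing of the spread between barcodes. The 10% of *Ncr1*/*Klrd1* barcodes with most member UMIs held 45.8% of them in NOD and 49.9% in CD1. The intervals leave that spread out. Genes with at least 20 UMIs over both classes entered counts of 2-fold differences. A fold against 0 used a floor of 3 UMIs over the class, but the shares over all genes used no floor. Named genes were the 8 members, other *Klra* rows, the genes of the lists, the 10 most like the summed members, and the 10 highest in barcodes with members, ranked by the interval bound of the weaker library. The genes set beside *Klra5* and *Klra4* barcodes come from those lists.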

Additional observations from a re-analysis of the deposited data

Results flagged for a closer look

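Of 77 genes and sums compared between *Eomes*/*Gzma* and *Xcl1* barcodes, 2 went in opposite directions in the libraries with both counting intervals off 0, and neither is a member. *Klrb1a* had a log2 ratio of 0.63 (0.47 to 0.80) in NOD and -0.38 (-0.62 to -0.13) in CD1. *Ncr1* had 0.10 (0.03 to 0.16) in NOD and -0.17 (-0.25 to -0.10) in CD1, but it helped to choose these barcodes, so its levels are a description only. With 1 library per strain these differences were not tested.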

How the results depend on the processing

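Of 16 alternatives for the summed members in NOD over CD1 (log2 1.65), none reversed it. It was 1.56 with doublets removed (99 of 1100 and 63 of 475 *Ncr1*/*Klrd1* barcodes), 1.70 with at least 3 gate UMIs and 1.96 without *Cd3* UMIs. With at least 1 *Ncr1* UMI as the whole gate, in place of the 2-UMI gate, it was 1.79. After subtracting the empty-droplet profile it was 1.79. Under median-of-ratios scaling it was 1.61, as a mean of per-barcode CPM 1.75 and after thinning 1.83. Of alternatives added after seeing the data, it was 1.41 in *Eomes*/*Gzma* barcodes, 1.71 in *Xcl1* barcodes, 2.06 without *Trac* UMIs, 1.49 without markers of another lineage and 1.66 without the barcode names found in both libraries. Between 4 and 7 of 8 members were at least 2-fold higher in NOD. *Klra7* reversed to -0.0024 without doublets and -0.31 in *Eomes*/*Gzma* barcodes, and *Klra3* to -0.39 in *Xcl1* barcodes. The cause was not tested. Against T and B barcodes in NOD (6.79) the ratio was 7.26 with at most 10% mitochondrial UMIs and 7.11 without doublets. It was 7.07 with 1 gate UMI and 7.12 with an *Ncr1* UMI as the whole gate. It was 7.14 without *Cd3* UMIs, 7.499 in *Eomes*/*Gzma* and 5.34 in *Xcl1* barcodes and 7.25 without *Trac* UMIs. The empty-droplet subtraction left T and B barcodes at 0, so its value of at least 13.83 is set by the floor. It took 34.2% of NOD T and B UMIs as free RNA. The members stood at 895 CPM in empty droplets but 29.7 CPM in T and B barcodes, so it removed more than was there. That value is thus no measure of the ratio, and the 1.79 above came from the same method. In CD1 the ratio against T and B barcodes is a lower bound throughout, from 7.12 to 9.58. The share of NOD barcodes with a member UMI (76.0%) was 82.6% with 3 gate UMIs and 60.4% with 1. It was 78.6% with an *Ncr1* UMI as the whole gate and 72.3% without *Cd3* UMIs. It was 50.4% thinned, 89.6% in *Eomes*/*Gzma* barcodes and 84.5% without *Trac* UMIs. For CD1 (56.2%) it was 39.1% with 1 gate UMI, 50.2% without *Cd3* UMIs, 27.2% thinned, 89.2% in *Eomes*/*Gzma* and 38.8% in *Xcl1* barcodes. With a filter of 1 UMI, 5295 genes were at least 2-fold higher in NOD and 3322 in CD1, against 1009 and 1030. No paired analysis was possible because each strain is 1 library. Counts are low for *Klra14-ps* (14 UMIs) and *Klra6* (46) in CD1, and CD1 has only 26 B and 28 *Klra5* barcodes.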
